A study of Mus musculus with 6 samples.

Results

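The 9 genes described here encode carriers of organic anions and ions: the organic anion transporters Slco4a1, Slco2b1 and Slco3a1, the sodium/proton exchangers Slc9a9 and Slc9a7, the cotransporter Slc12a2, and the sodium pump proteins Fxyd2, Fxyd5 and Atp1b3. Macrophages grown from the bone marrow of 2 genotypes were compared, vimentin-deficient mice and their wild-type littermates. All probe sets whose annotation for this Affymetrix mouse array names 1 of these genes and no other were taken, which gave 22 of the 45037 probe sets that are not controls, for 9 of the 18193 genes that have such a probe set. Both groups had a C57BL/6 background, were 17 weeks old and received rodent chow. In both groups, marrow of the femur was cultured at normal oxygen with conditioned medium of the CMG14-12 line, which supplies macrophage colony-stimulating factor. Each group has 3 arrays, from samples that the labels call biological replicates and do not tie to cultures or animals further. The p-values below therefore measure only the spread between these samples, which may be technical. The labels do not say how the Vim allele was altered, and no group was treated otherwise. The 9 genes were put together with differences between the genotypes on these arrays already known. The genotype differences of the 9 are therefore given as a description, and no p-value is given for any of them.

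Cells keep their sodium, potassium, proton and chloride gradients with a small set of membrane proteins. The Na,K-ATPase pumps sodium out and potassium in, with a catalytic alpha subunit, a beta subunit that brings it to the membrane and a small FXYD protein that tunes it. Exchangers of the SLC9 family and cotransporters of the SLC12 family spend these gradients on proton and chloride movement. They set the pH of the cytosol and of endosomes and the volume of the cell, both of which matter to a phagocyte. SLCO proteins take up large organic anions such as conjugated steroids, thyroid hormones and prostaglandins.

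Each array gave log2 probe set values as deposited, from 5.43 to 14.50 over the 6 arrays, and the 6 medians lay from 7.23 to 7.25. Precision is limited by there being 3 arrays a group. Vim read 7.43 ± 0.67 in the vimentin-deficient and 13.32 ± 0.09 in the wild-type group on the log2 scale (SD, n = 3 each). Vimentin-deficient replicates 2 and 3, at 6.96 and 7.13, lay below the array medians, so the size of that difference includes background. Vimentin-deficient replicate 3 stood apart: it correlated with the other arrays at 0.975 to 0.979 over all probe sets, while pairs among the other 5 arrays reached 0.992 to 0.998. Values are given with and without it. The macrophage markers Lyz2 and Cd68 read 13.93 to 14.22 and 13.60 to 13.78 over all 6 arrays. Of 48 markers of other cells that marrow can hold, 22 had a mean above the 40th percentile of all probe sets (6.93), the level from which genes were tested.

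Slco4a1 and Fxyd2 had the highest and the second highest difference in the upward direction of all 13445 tested genes with 6 arrays. Without vimentin-deficient replicate 3 Slco4a1 ranked 2 and Fxyd2 ranked 27. Slco3a1 and Fxyd5 were also higher on all 3 vimentin-deficient arrays, Slc9a9 and Slc12a2 were lower on all 3, and the groups overlapped for Slc9a7, Slco2b1 and Atp1b3. The brightest probe set of a gene stands for it in these statements. Groups thus did not overlap for 4 genes in the higher direction, where 5.32% of all tested genes did so, and for 2 in the lower direction, where 10.1% did. Across probe sets, 9 of 22 lay higher and 6 lower without overlap, beside 5.49% and 8.59% of all probe sets, 14.1% together. The corresponding share of genes in either direction was 15.5%. With 6 arrays, 0 of the 9 genes passed a limma adjusted p of 0.05, and 0.0223% of all genes did. An unadjusted limma p under 0.05 was reached by 7.97% of all genes. Without vimentin-deficient replicate 3, 1.31% of all genes passed the adjusted threshold as higher and 1.03% as lower, or 2.34% in either direction. The 9 genes were chosen from this contrast, so nothing is read from the counts of them given here.

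**Figure D1:**
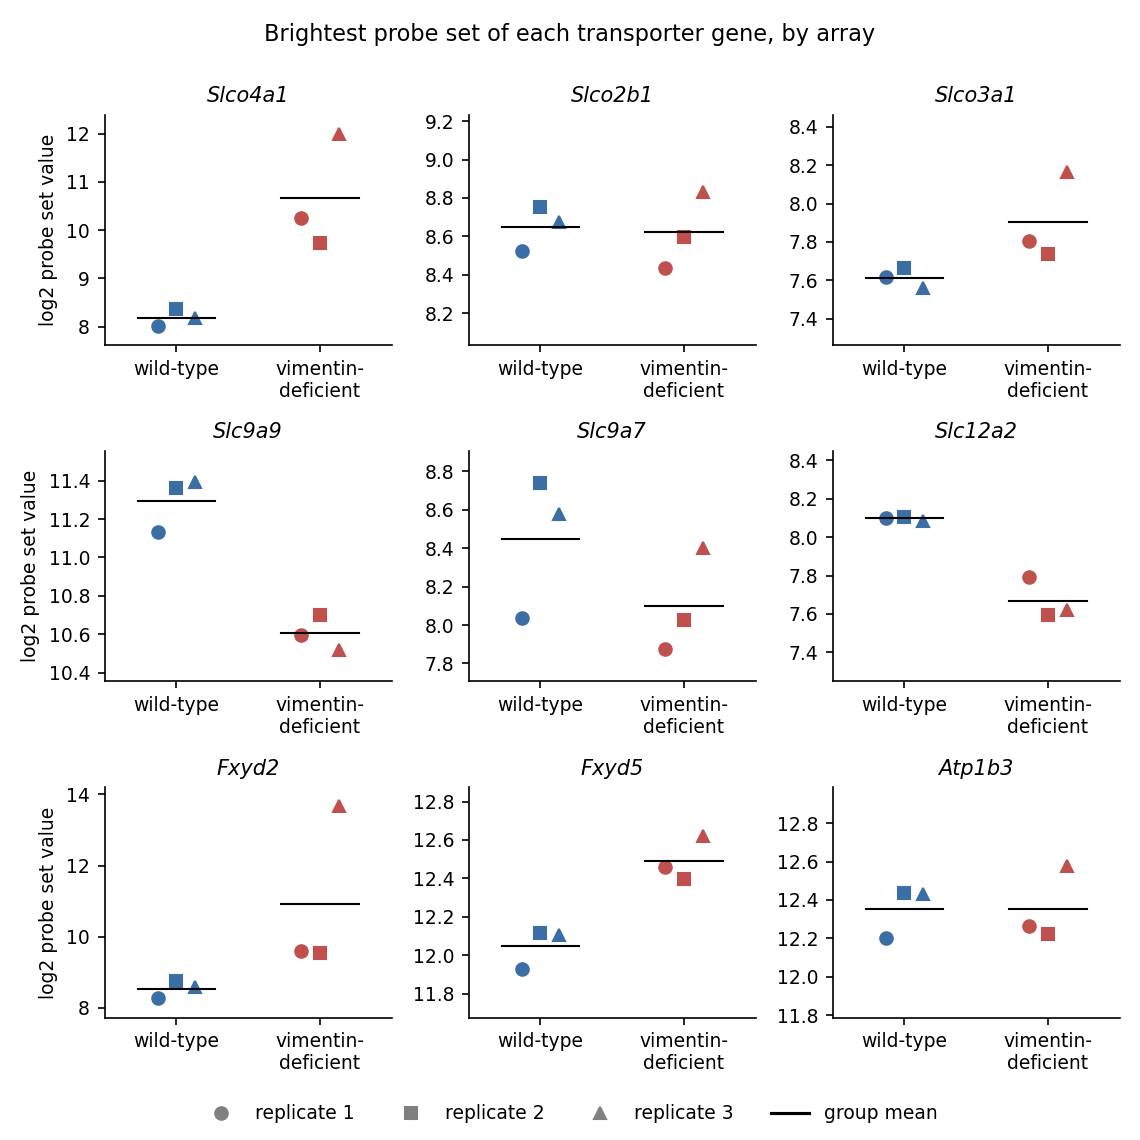
Log2 probe set value of the brightest probe set of each of the 9 genes on every array; symbols mark the replicate, horizontal bars the group means, and each panel has its own vertical range, so levels of different genes are not to be compared. Replicate 3 (triangle) is the highest of the vimentin-deficient arrays in 7 of the 9 panels.

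Slco4a1 encodes an organic anion transporter known for the uptake of thyroid hormone and prostaglandins. Its brightest probe set read 10.25, 9.74 and 11.99 on vimentin-deficient replicates 1, 2 and 3 and 8.01, 8.36 and 8.17 on wild-type replicates 1, 2 and 3. Every vimentin-deficient array lay above every wild-type array, and replicate 3 was the highest by a wide margin. The difference was 2.48 on the log2 scale (SE 0.52, limma fit of all probe sets), a 5.57-fold difference. Without vimentin-deficient replicate 3 it was 1.81 (SE 0.14), which is 3.51-fold. The other probe set read 10.55, 9.79 and 12.08 against 7.47, 7.83 and 7.72, with a difference of 3.14 (SE 0.51), or 2.50 (SE 0.17) without replicate 3. Both probe sets put the arrays in the same order within the vimentin-deficient group and within the wild-type group. The second carries the suffix that the manufacturer gives to probe sets that can share sequence with other transcripts.

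Of the 9 genes, 6 had an entry in the RefSeq promoter table (assembly GRCm38.p6). The 250 bases before the annotated start are shown for Slco4a1, Slc9a9 and Fxyd5, the genes with such an entry whose groups did not overlap. For Slco4a1, which has 2 annotated starts, the first in the table is shown. They are printed 5′ to 3′ on the gene's strand, with motif matches in capitals: Slco4a1 at chr2:180455995-180456244 (plus strand), Slc9a9 at chr9:94669642-94669891 (plus strand) and Fxyd5 at chr7:31042332-31042581 (minus strand).
Slco4a1: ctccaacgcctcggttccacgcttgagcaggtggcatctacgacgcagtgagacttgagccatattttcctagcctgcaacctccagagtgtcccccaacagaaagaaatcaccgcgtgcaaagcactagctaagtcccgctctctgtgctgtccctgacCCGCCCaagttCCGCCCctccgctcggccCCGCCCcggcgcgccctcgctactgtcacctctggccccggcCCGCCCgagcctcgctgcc
Slc9a9: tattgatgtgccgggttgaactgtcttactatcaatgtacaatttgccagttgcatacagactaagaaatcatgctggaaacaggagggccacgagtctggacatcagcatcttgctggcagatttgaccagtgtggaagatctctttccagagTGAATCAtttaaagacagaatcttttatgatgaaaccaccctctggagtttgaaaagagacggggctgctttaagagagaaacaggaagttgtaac
Fxyd5: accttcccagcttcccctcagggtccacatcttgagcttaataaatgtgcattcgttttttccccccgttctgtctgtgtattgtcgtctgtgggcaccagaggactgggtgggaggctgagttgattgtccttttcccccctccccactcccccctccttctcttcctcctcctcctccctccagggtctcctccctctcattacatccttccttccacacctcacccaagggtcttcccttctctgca
The motifs searched on both strands were the GC box GGGCGG, the AP-1 motif TGANTCA, the interferon-stimulated response element core GAAANNGAA, the STAT motif TTCNNNGAA, the PU.1 motif GAGGAAGT and the E-box CACGTG. The Slco4a1 window held 4 GC boxes and none of the other motifs, and its other start held no match. The Slc9a9 window held 1 AP-1 match and the Fxyd5 window none of the 6. Of all 32851 windows of this length in the table, 32.7% held a GC box, 6.75% an AP-1 match, 7.13% the interferon-stimulated core, 7.02% the STAT motif, 2.44% the PU.1 motif and 6.02% the E-box. The windows of Slc9a7 and Atp1b3, whose groups overlapped, held 3 and 5 GC boxes at their first start. The window of start 2 of Atp1b3 held an E-box. For Slco2b1, whose groups overlapped as well, the window of start 3 held a STAT match. No match shown overlapped another motif. A match is a description of the letters in the window, as is the lack of one.

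Slco3a1 encodes a widely expressed transporter of prostaglandins and thyroxine. Its brightest probe set read 7.81, 7.74 and 8.16 on the vimentin-deficient arrays and 7.62, 7.67 and 7.56 on the wild-type arrays. The lowest vimentin-deficient array thus lay just above the highest wild-type array. The difference was 0.29 (SE 0.11), or 1.22-fold, and 0.16 (SE 0.06) without replicate 3. The other 2 probe sets of Slco3a1 read 0.36 (SE 0.09) and 0.17 (SE 0.07) higher, and for all 3 probe sets the groups did not overlap. Without replicate 3 they read 0.26 and 0.10 higher.

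Slco2b1 encodes an uptake transporter of steroid sulphates that is found in liver, gut and macrophages. It read 8.44, 8.60 and 8.83 on the vimentin-deficient arrays and 8.52, 8.75 and 8.67 on the wild-type arrays. The groups overlapped, with the lowest and the highest array both vimentin-deficient. The difference was -0.029 (SE 0.12), and it changed sign without single arrays, from -0.13 to 0.06. A second probe set differed by 0.05 (SE 0.05). The third, whose mean lay below 6.93, read 6.41, 6.51 and 7.51 against 6.60, 6.78 and 7.06. On it, vimentin-deficient replicate 3 was above and replicates 1 and 2 were below every wild-type array, so the difference was -0.0068 with 6 arrays and -0.36 (SE 0.10) without replicate 3.

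Slc9a9 encodes a sodium/proton exchanger of recycling endosomes, where it counters acidification by the V-ATPase. Its brightest probe set read 10.60, 10.70 and 10.52 on the vimentin-deficient arrays and 11.13, 11.36 and 11.39 on the wild-type arrays. All vimentin-deficient arrays lay below all wild-type arrays, and here replicate 3 lay close to the other two. The difference was -0.69 (SE 0.10), a 1.61-fold lower level, and -0.65 (SE 0.10) without replicate 3. The second probe set read 8.81, 8.89 and 8.75 against 9.22, 9.42 and 9.62, a difference of -0.60 (SE 0.11). The third differed by -0.19 (SE 0.07) without overlap, and the fourth, with a mean below 6.93, by -0.05 (SE 0.05) with overlap. The 4 probe sets of Slc9a9 thus agreed in sign and differed in size. With the mean over all probe sets of the gene in place of the brightest, the difference was -0.38 (SE 0.08).

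Slc9a7 encodes the related exchanger of the trans-Golgi network. It had 1 probe set of its own, and 1 further probe set that also names another gene was not used. The values were 7.88, 8.03 and 8.40 on the vimentin-deficient arrays and 8.04, 8.74 and 8.58 on the wild-type arrays. The groups overlapped only in that vimentin-deficient replicate 3 lay above wild-type replicate 1. Vimentin-deficient replicates 1 and 2 lay below every wild-type array. The difference was -0.35 (SE 0.20) with 6 arrays and -0.50 (SE 0.15) without replicate 3. It ranged from -0.56 to -0.21 in the fits that left out 1 array. Wild-type replicate 1 also had the lowest wild-type value of Slc9a9, and the wild-type SD was larger for Slc9a7 (0.37) than for Slc9a9 (0.14).

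Slc12a2 encodes the cotransporter that brings sodium, potassium and chloride into the cell and restores its volume after shrinkage. Its brightest probe set read 7.79, 7.59 and 7.62 on the vimentin-deficient arrays and 8.10, 8.11 and 8.09 on the wild-type arrays. The wild-type arrays were close to each other (SD 0.0098), and all vimentin-deficient arrays lay below them. The difference was -0.43 (SE 0.07), or 1.35-fold, and -0.41 (SE 0.07) without replicate 3. The other 2 probe sets, both with means below 6.93, were lower without overlap as well, by -0.24 (SE 0.05) and -0.18 (SE 0.04). The mean over the 3 probe sets gave -0.28 (SE 0.05). A difference can be compressed near the floor of the array, and whether it was here was not tested.

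**Figure D2:**
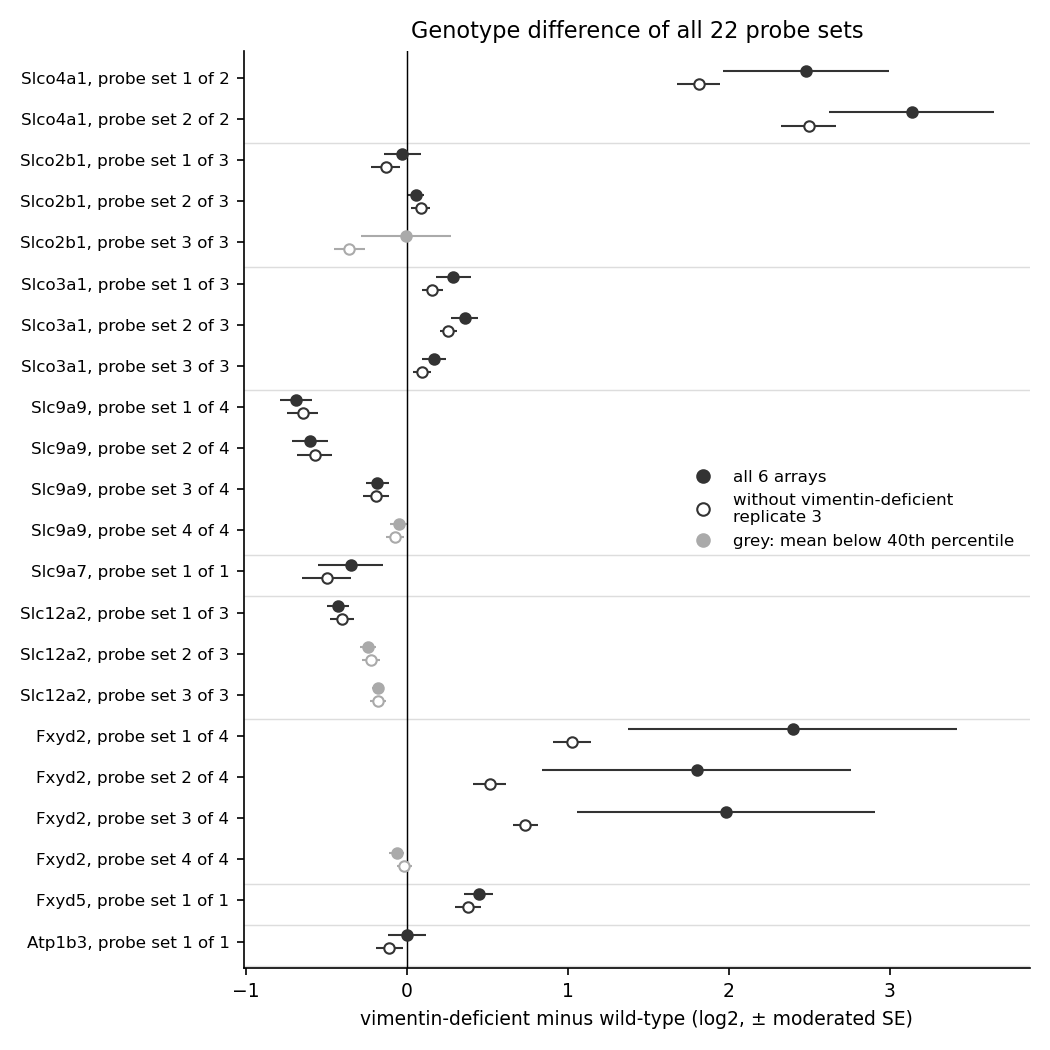
Difference between genotypes (vimentin-deficient minus wild-type, log2) of each of the 22 probe sets, with the moderated standard error of limma from a fit of all probe sets; filled points use 6 arrays (3 per group), open points leave out vimentin-deficient replicate 3, and probe sets are numbered from the brightest. The differences of Slco4a1 and Fxyd2 shrink without that array, and those of Slc9a9 and Slc12a2 stay close to their values.

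Fxyd2 encodes the gamma subunit of the Na,K-ATPase, best known from the kidney tubule. Its brightest probe set read 9.58, 9.54 and 13.66 on the vimentin-deficient arrays and 8.26, 8.74 and 8.59 on the wild-type arrays. All vimentin-deficient arrays lay above all wild-type arrays, but replicate 3 lay 4.10 log2 units above the mean of replicates 1 and 2. Over all tested genes, that gap was the second highest. The difference between genotypes was 2.39 (SE 1.02), or 5.26-fold, with 6 arrays and 1.03 (SE 0.12), or 2.04-fold, without replicate 3.

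The probe sets of Fxyd2 did not all behave alike. The second read 9.07, 9.20 and 12.99 against 8.42, 8.74 and 8.71, and the third 8.82, 8.74 and 12.51 against 8.003, 8.14 and 7.99. Both followed the brightest, with differences of 0.51 (SE 0.10) and 0.74 (SE 0.08) without replicate 3. Both carry the same suffix as the second probe set of Slco4a1, so they too can share sequence with other transcripts. The fourth, with a mean below 6.93, read 6.78, 6.77 and 6.64 against 6.81, 6.77 and 6.81. On it replicate 3 was the lowest of the 6 arrays, and the difference was -0.07 (SE 0.05). The platform annotation gives this probe set a non-coding RefSeq transcript, while the brightest 2 carry a coding one.

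Fxyd5 encodes dysadherin, a FXYD protein that also lowers cell-cell adhesion. It read 12.46, 12.40 and 12.62 on the vimentin-deficient arrays and 11.93, 12.11 and 12.10 on the wild-type arrays. The groups did not overlap, and the vimentin-deficient arrays lay close to each other. The difference was 0.44 (SE 0.09), or 1.36-fold, and 0.38 (SE 0.08) without replicate 3. Atp1b3, the gene of a beta subunit of the same pump, read 12.26, 12.22 and 12.57 against 12.20, 12.44 and 12.43. Its groups overlapped, with a difference of -0.00081 (SE 0.12) with 6 arrays and -0.11 (SE 0.08) without replicate 3. Each of these genes has 1 probe set.

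Across the 9 genes, the same arrays were often the extremes of their group. Vimentin-deficient replicate 3 was the highest of its group for 7 of the 9 genes, Slc9a9 and Slc12a2 being the others. It was the highest for 33.2% of all tested genes. Its gap to the mean of replicates 1 and 2 was 2.00 log2 units for Slco4a1, 0.45 for Slc9a7, 0.39 for Slco3a1, 0.33 for Atp1b3, 0.31 for Slco2b1 and 0.19 for Fxyd5. Wild-type replicate 1 was the lowest of its group for 7 of the 9, Slco3a1 and Slc12a2 being the others, beside 37.1% of all genes. The 9 genes were chosen with differences on these same arrays known, so nothing is read from either count. On vimentin-deficient replicates 1, 2 and 3 the macrophage marker list (8 of 8 tested) had mean deviations of -0.04, -0.0034 and 0.35 log2 units from the wild-type level. The wild-type arrays themselves deviated by -0.10 to 0.06. Its members went both ways, with 3 of 8 higher in the vimentin-deficient group: on replicate 3 Fcgr1 read 11.70 against 9.82 to 10.09 on the wild-type arrays, and Itgam 9.60 against 10.30 to 10.41. The osteoclast marker list (5 of 7 tested) deviated by -0.07, -0.01 and 0.37, and the wild-type arrays by -0.03 to 0.02. Ctsk, the gene of the osteoclast protease cathepsin K, read 9.01 on vimentin-deficient replicate 3 and 7.37 to 7.72 on the other arrays, while Acp5, the next brightest of the list, read 7.54 to 7.94 over all arrays. The part of these shifts in the values of Slco4a1 and Fxyd2 on that array was not tested. In bulk RNA, fewer cells of a type and less RNA per cell cannot be told apart.

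The marker lists of dendritic cells (5 of 8 tested), B cells (1 of 5), T and NK cells (2 of 6), neutrophils (3 of 7) and stromal cells (4 of 6) deviated by -0.15 to 0.06 log2 units on the vimentin-deficient arrays. The 2 brightest of the dendritic list, Batf3 and Itgae, read 7.66 to 7.97 and 7.71 to 7.87. The erythroid list (2 of 5 tested, Epor and Hba-a1) was lower, at -0.24, -0.16 and -0.10 on the 3 vimentin-deficient arrays. Pax5 of the B cell list read 7.05 to 7.22 over all 6 arrays, and Cd3e and Ncr1 of the T and NK cell list 9.08 to 9.27 and 7.03 to 7.17. The neutrophil genes Elane and Mpo read 7.80 to 8.10 and 7.42 to 7.67, and the stromal genes Col1a1 and Cxcl12 7.92 to 8.11 and 7.59 to 7.87. Of the 4 mast cell and basophil markers, 0 reached the level for testing. In all, 8 macrophage markers and 22 markers of other cells were tested. With 6 arrays, 0 of them passed a limma adjusted p of 0.05, beside 0.0223% of all tested genes. An unadjusted limma p under 0.05 was reached by 3 of them with 6 arrays, beside 7.97% of all tested genes. In the fit without replicate 3 it was reached by 7 of them, beside 14.2% of all tested genes. Without replicate 3, the macrophage marker Cd14 rose by 0.59 (limma adjusted p = 0.00201) and Epor fell, at -0.32 (limma adjusted p = 0.0389). No other marker passed in that fit, where 1.31% of all tested genes passed as higher and 1.03% as lower.

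The patterns most like those of Slco4a1 and Fxyd2, the only 2 of the 9 genes that ranged over 1 log2 unit or more across the arrays, were sought among all other tested genes. Likeness was the root mean square difference of the deviations from the wild-type mean over the 6 arrays, in log2 units. Nearest to Slco4a1 were Ifit2 (0.31), Ly6e (0.33) and Ifit3 (0.36). Ifit2 deviated by 1.59, 1.77 and 3.25 on vimentin-deficient replicates 1, 2 and 3, where Slco4a1 deviated by 2.07, 1.56 and 3.81. All 4 genes lay above the wild-type mean on each vimentin-deficient array, and furthest above it on replicate 3. Nearest to Fxyd2 were Ifit3 (0.77), H2-Eb1 (0.82) and Ifit2 (0.86), so no tested gene came as close to it as Ifit2 did to Slco4a1. H2-Eb1 deviated by -0.33, 0.11 and 4.01, whereas Fxyd2 deviated by 1.05, 1.00 and 5.13. H2-Eb1 thus lay below Fxyd2 on all 3 vimentin-deficient arrays, and only on replicate 3 did it lie far above its wild-type level. These are descriptions over 6 arrays that share replicate 3. The measure is not scaled, so only genes with differences of similar size could come near. Slco4a1 and Fxyd2 were chosen with this contrast known, so nothing is read from the likeness.

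**Figure D3:**
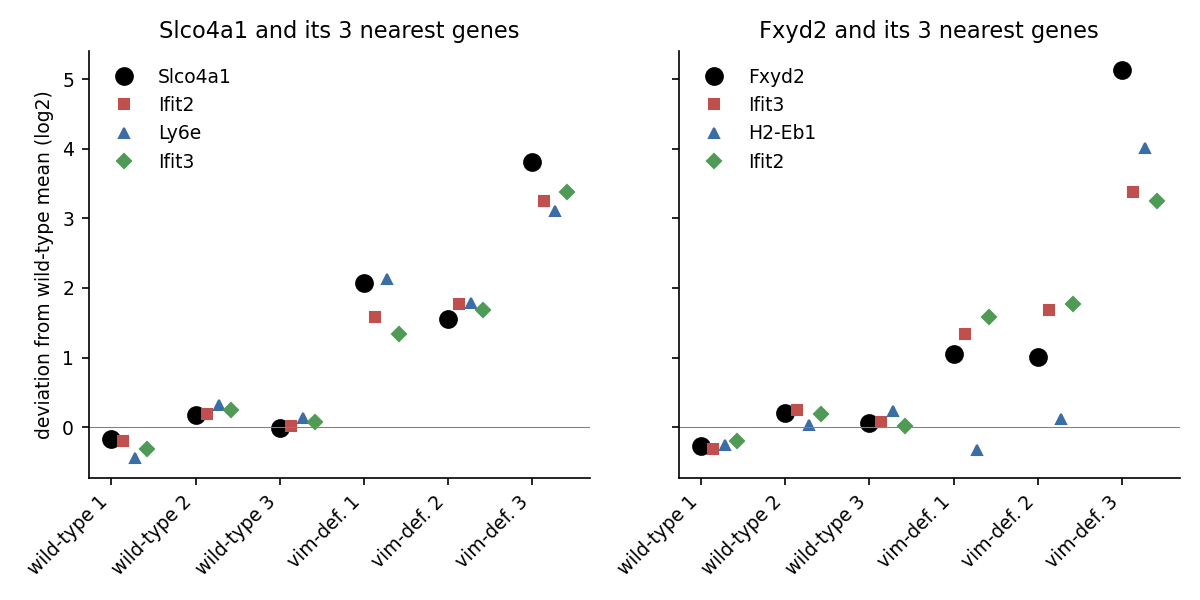
Deviation of the log2 value from the wild-type mean on each of the 6 arrays for Slco4a1 (left) and Fxyd2 (right) and the 3 genes nearest to each; symbols mark the gene, and points of 1 array are set side by side. The root mean square difference is 0.31 to 0.36 for the genes beside Slco4a1 and 0.77 to 0.86 for those beside Fxyd2, which exceeds its neighbours on vimentin-deficient replicate 3.

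For the other genes of these families, the same comparison was made. Of 60 listed genes, 36 were tested, 11 of them higher and 25 lower, with a median difference of -0.04 beside -0.02 over all tested genes. With 6 arrays, 0 of the 36 passed the limma adjusted p of 0.05, and 3 had an unadjusted p under 0.05, as 7.97% of all tested genes did. Without vimentin-deficient replicate 3, 1 rose and 0 fell, beside 1.31% and 1.03% of all genes. In that fit 4 had an unadjusted limma p under 0.05, beside 14.2% of all genes. Groups did not overlap for 1 gene in the higher and 4 in the lower direction, beside 5.32% and 10.1% of all tested genes. The 24 listed genes that are not among the 36 were not analysed here.

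Among the other organic anion transporting polypeptides, 5 of 12 were tested and the differences ran from -0.07 to 0.03. Their means over the arrays lay from 7.16 to 7.67, where the array medians were 7.23 to 7.25. Background can limit differences at this level, which was not tested. The brightest, Slco1c1, read 7.65 to 7.70 in wild-type and 7.63 to 7.69 in vimentin-deficient macrophages. The next, Slco1a4, had a difference of -0.02 (SE 0.06). Slco4a1 and Slco3a1 lay outside this range and Slco2b1, at -0.029, lay inside it. These 3 genes were chosen with this contrast known, so nothing is read from that.

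Among the other sodium/proton exchangers and their partners, 6 of 13 were tested. Slc9b2, which encodes a sodium/proton antiporter of the NHA type known from osteoclasts, read 7.81, 7.75 and 8.38 on the vimentin-deficient arrays and 7.41, 7.56 and 7.58 on the wild-type arrays. The groups did not overlap, and the difference of 0.46 (SE 0.16, limma adjusted p = 0.559) was 0.26 (SE 0.07) without replicate 3. Slc9a3r1, which encodes the scaffold NHERF1 that holds exchangers at the membrane, read 11.15, 11.09 and 10.72 against 11.30, 11.31 and 11.27. It was lower without overlap, by -0.31 (SE 0.12, limma adjusted p = 0.603), and by -0.18 without replicate 3. Neither passed the threshold. The organelle exchanger gene Slc9a8 had -0.13 (SE 0.06).

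Among the other cation chloride cotransporters and their kinases with 1 kinase partner, 11 of 15 were tested. Slc12a3, the gene of the kidney cotransporter of sodium and chloride, was lower without overlap at a low level, by -0.10 (SE 0.04, limma adjusted p = 0.553). Wnk1, the kinase gene that acts upstream of Slc12a2, had -0.04 (SE 0.10), and Oxsr1, which encodes the kinase that phosphorylates these cotransporters, had 0.02 (SE 0.06). The differences of this list ran from -0.10 to 0.09, and that of Slc12a2, -0.43, lay outside them. Slc12a2 was chosen with this contrast known, so nothing is read from that either. Among the other Na,K-ATPase and FXYD genes, 7 of 11 were tested, with differences from -0.11 to 0.02. Fxyd1, the gene of phospholemman, was lower without overlap by -0.11 (SE 0.06, limma adjusted p = 0.706), and Atp1b1 had -0.06 (SE 0.07).

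Among the organic anion efflux pumps, 7 of 9 were tested. Abcc4, which encodes an exporter of cyclic nucleotides and prostaglandins, read 8.68, 8.48 and 8.25 on the vimentin-deficient arrays and 8.26, 8.17 and 8.21 on the wild-type arrays. Replicate 3 lay among the wild-type arrays, and the difference of 0.26 (SE 0.11, limma adjusted p = 0.627) became 0.36 (SE 0.08, limma adjusted p = 0.0389) without it. It was the only family gene that rose in the fit of 5 arrays. Abcc1, an exporter of glutathione conjugates and leukotrienes, had 0.29 (SE 0.13, limma adjusted p = 0.646), and Abcc12 was lower without overlap, by -0.07 (SE 0.04).

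**Figure D4:**
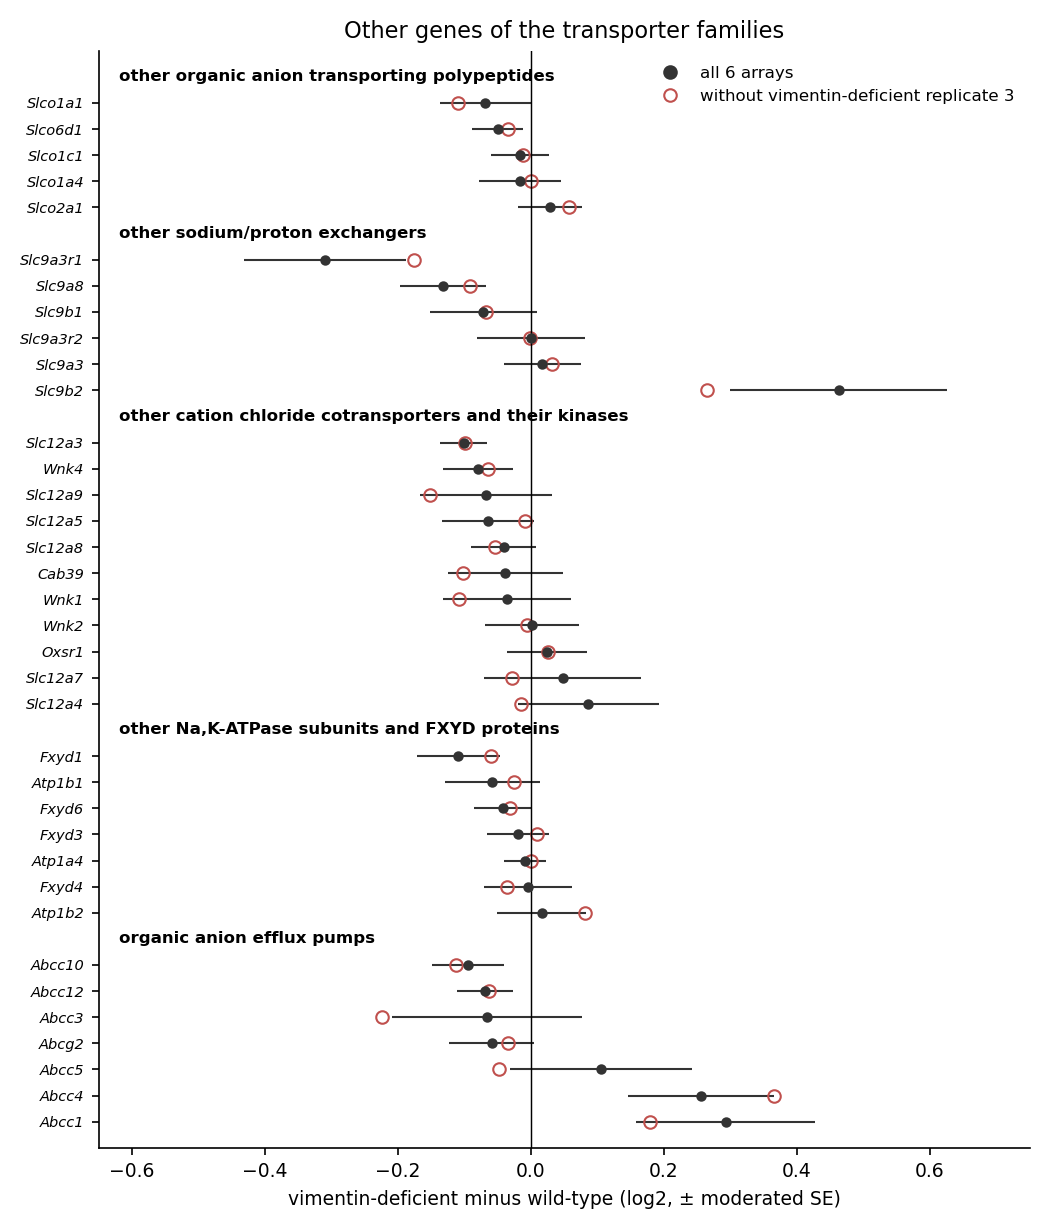
Difference between genotypes (vimentin-deficient minus wild-type, log2) of the 36 tested family genes that are not among the 9, by list; black points with moderated standard errors of limma use 6 arrays, and red circles leave out vimentin-deficient replicate 3. Most genes lie close to 0, Slc9b2 has the highest value with 6 arrays (0.46) and Slc9a3r1 the lowest (-0.31). Some of the genes, such as the organic anion transporting polypeptides, read at a low level, where background can limit a difference.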

How the data were processed

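RNA of 6 samples was hybridised to Affymetrix arrays, per the labels' protocols after Trizol extraction and biotin labelling. The log2 values are those the authors deposited. How probe sets were summarised and normalized is not given in the sources available here, and background signal cannot be separated from them. Array medians lay within 0.1, so the values were used as deposited. Probe set names come from the platform annotation, and symbols were updated by Entrez ID for 34741 of 34945 probe sets with 1 symbol. The brightest probe set by mean over the arrays stood for a gene, which was tested where that mean reached the 40th percentile, 6.93, which left 13445 genes. The test was limma 3.58.1 in R 4.3.3 (lmFit, and eBayes with its trend option) between the genotypes, with Benjamini-Hochberg adjustment over all tested genes and a threshold of 0.05. The standard errors of the 9 genes come from a second limma fit of all 45037 probe sets, which moderates variances over another set of features. Those given for the mean over all probe sets of Slc9a9 and Slc12a2 come from a limma fit of genes by that mean. The procedure was tested on simulated data.

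The 9 genes and the lists were chosen with earlier results of these data known. Named were all 9 genes and, in each family list, the genes whose groups did not overlap or that passed the threshold, otherwise the 2 brightest. The 2 brightest members of marker lists and the 3 genes nearest in pattern to a member that ranged over 1 log2 unit or more were named too. Slc9a8, Wnk1, Oxsr1, Atp1b1, Abcc1, Cd14, Fcgr1 and Itgam were named after their values were seen. Alternatives covered normalization, filter, rule for several probe sets, variance trend, array weights, replicate block, threshold and leaving out each array. Promoter windows came from RefSeq (GRCm38.p6). The array values name no build.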

Additional observations from a re-analysis of the deposited data

How the results depend on the processing

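Counts over all genes depended on single arrays. With 6 arrays 0 genes rose (405 higher at an unadjusted limma p under 0.05) and 3 fell. Array quality weights, which gave vimentin-deficient replicate 3 a weight of 0.226, called 52 rising and 41 falling genes. In the fits without 1 array, the number that rose ranged from 0 to 176 and the number that fell from 0 to 139, with the highest counts without vimentin-deficient replicate 3, 1 without vimentin-deficient replicate 2 and 0 without each of wild-type replicates 1, 2 and 3. The family genes that rose ranged from 0 to 1 in these fits. With the replicate number as a block 0 genes fell, where 620 were lower at an unadjusted p under 0.05. Same-numbered arrays deviated together at correlations of 0.50, -0.19 and 0.05, so the numbers were not taken to pair the samples, and not every array correlated best with its own number. The cause of these changes was not tested.

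The differences of the 9 genes were computed under 14 alternatives each. Those of Slco4a1 (1.81 to 2.94 without 1 array, 2.03 to 2.81 otherwise), Fxyd2 (1.03 to 3.09 and 1.36 to 2.39), Slco3a1, Fxyd5, Slc9a9, Slc9a7 and Slc12a2 kept their sign in all 14. Slc9a9 and Slc12a2 moved by more than the replicate SD under 1 alternative, the mean over all probe sets. Fxyd2 and Slco4a1 did not, but their vimentin-deficient SD, replicate 3 included, was 2.37 and 1.18. The rule is thus coarser for them. Without replicate 3, Fxyd2 went from 2.39 to 1.03 and Slco4a1 from 2.48 to 1.81. Slco2b1 changed sign under 3 and Atp1b3 under 4 alternatives, by less than the replicate SD. Dim probe sets can limit the size of differences near the floor of the array, which was not tested.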
